A study of Mus musculus with 12 samples.

Results

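A set of 10 classic genes of the integrated stress response and the unfolded protein response was followed through sorted CD8+ T cells of mouse tumours, namely Atf4, Ddit3, Trib3, Chac1, Sesn2, Asns, Psat1, Hspa5, Xbp1 and Herpud1. They were taken by symbol from a table of 56941 genes. The 10 symbols matched 11 rows, because Ddit3 is listed under 2 gene IDs, and 10 of the rows passed the expression filter. The row that did not is the second Ddit3 ID, which held 0 or 1 count in each library.

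The libraries came from Panc02 tumours, a transplantable line of pancreatic cancer from the mouse, carried by C57BL/6J hosts of wild type. Viable (DAPI-) CD45.2+ CD8+ cells were sorted as negative or positive for asialo-GM1 (asGM1), a glycosphingolipid of the cell surface, after treatment with an isotype control antibody or with anti-PD-1, which blocks the inhibitory receptor PD-1. The design asks what asGM1 marks on tumour CD8+ T cells and how each population differs under PD-1 blockade. There were 4 groups of 3 libraries, 12 in all: isotype asGM1-negative, isotype asGM1-positive, anti-PD-1 asGM1-negative and anti-PD-1 asGM1-positive. The labels give neither the animals' age, nor antibody dose or day, nor whether animals were pooled or replicates came from separate mice, so p-values measure only how libraries of a group vary, and part of that may be technical. No gate on CD3 or the T cell receptor was named.

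The integrated stress response is a brake on protein synthesis shared by several kinases, which sense unfolded protein, missing amino acids, haem shortage or viral RNA and phosphorylate the initiation factor eIF2α. Under that brake ATF4 is translated, and it switches on genes for amino acid synthesis and transport, together with Ddit3 (CHOP), a transcription factor tied to cell death. The unfolded protein response joins one of those kinases, PERK, with the sensors IRE1 and ATF6, which raise chaperones and degradation genes of the endoplasmic reticulum (ER). In T cells these pathways accompany activation, when secretory and biosynthetic load grow, and they have been linked to poor function in tumours.

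Libraries held 58.1 to 73.2 M counts (M, mega), and levels below are CPM (counts per M counts of the library) after TMM scaling, a correction for composition. Genes were tested with edgeR's quasi-likelihood test and called at a Benjamini-Hochberg adjusted p under 0.05 over the 18657 genes that passed the filter. The labelled cell type had its markers, since all 10 CD8 T cell markers were detected and summed to between 11200 and 15800 CPM in every library. Markers of other cells differed with the sort and with treatment. Of 12 macrophage markers 8 were called higher in asGM1-positive cells under isotype and 6 under anti-PD-1, and the list summed to 76.4 to 86.4 CPM (isotype asGM1-negative), 227 to 319 (isotype asGM1-positive), 79.3 to 121 (anti-PD-1 asGM1-negative) and 185 to 331 CPM (anti-PD-1 asGM1-positive). Of 12 plasmacytoid dendritic cell markers 10 and 7 were called lower, and the defining marker Siglech stood at 46.2 to 71.3 and 25.1 to 34.8 CPM in asGM1-negative cells but at 0 to 0.236 and 0 to 0.489 CPM in asGM1-positive cells. Of 11 B and plasma cell markers, which summed to 171 to 303 CPM over the libraries, Ms4a1 and Tnfrsf17 were at 0 in every library, while Cd79b and Mzb1 were called lower in asGM1-positive cells under isotype and Mzb1 under anti-PD-1. Of 7 markers of CD4 and regulatory T cells 2 were called lower in each treatment, Foxp3 in both.

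Between treatments, NK cell markers summed to 79.8 to 142 CPM (asGM1-negative) and 255 to 341 CPM (asGM1-positive) under isotype and to 41.8 to 85.4 and 52 to 110 CPM under anti-PD-1, with Fcer1g called lower in both populations and Klrb1c in asGM1-positive cells. Eomes, another gene of the NK list, was called higher under anti-PD-1 averaged over populations. Tumour epithelium and fibroblast markers summed to 62 to 88.4 and 103 to 111 CPM under isotype and to 24.3 to 31.5 and 16.1 to 27.5 CPM under anti-PD-1, with Cdh1 called lower in both populations. Markers of CD4 and regulatory T cells summed to 769 to 1050 and 550 to 827 CPM under isotype. Under anti-PD-1 they summed to 1570 to 1620 and 1250 to 1440 CPM, with Ctla4 called higher in both populations. The CD8 T cell genes Cd8a and Cd3g were called lower under anti-PD-1 in asGM1-positive cells and averaged over populations. Averaged over populations, where 18.1% of all genes were called, the macrophage markers C1qa and C1qc were called lower under anti-PD-1 and Cd68 higher. On the plasmacytoid dendritic cell list Ly6d, Lair1 and Bst2 were called lower and Runx2 higher. On the B and plasma cell list Ighm was called lower and Prdm1 higher. The part of all these markers in the treatment differences below was not tested.

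Both libraries of anti-PD-1 replicate 2 stood apart in the heat shock gene Hspa1a, which reached 151 and 146 CPM there, while the remaining 4 libraries of that treatment held 22.5 to 32.6 CPM. Where dropping this pair of libraries ended a call of a gene named below, in the fit without a block, the value is given. Without the pair, 7 macrophage markers were called between populations under isotype and 0 under anti-PD-1, and 9 and 2 plasmacytoid dendritic cell markers. Of the other calls on markers above, those of Mzb1 and both CD4 and regulatory T cell markers between populations under anti-PD-1 were lost. So were those of Cd8a and Cd3g in asGM1-positive cells and of Eomes (adjusted p = 0.0552, 0.11 and 0.168). The averaged treatment calls of C1qc, Cd68, Ly6d and Bst2 were lost too (adjusted p = 0.122, 0.0706, 0.0639 and 0.126). Averaged over populations Cd8a and Cd3g still passed (adjusted p = 0.0241 and 0.0455).

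Promoters of several members hold letters known to be read by the factors above, so those stretches are shown before the values. They come from RefSeq's promoter table for build GRCm38.p6, which covered 10 of 10 members (11 windows, as Psat1 has 2 starts); the counts were made on build mm39 and carry no coordinates. Both strands of the 250 bases before each start were searched for letters bound by stress factors. The ER stress element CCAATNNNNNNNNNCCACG, read by ATF6 with NF-Y, is in 0.113% of 32851 promoters, and among the members in Hspa5. The related ERSE-II, ATTGG and CCACG with 1 base of any kind between them, is in 0.0304% of promoters and among the members in Herpud1. The CARE element TGATGNAAN, read by ATF4 with C/EBP partners, is in 3.44% of promoters and in Asns, Chac1 and Herpud1. Capitals mark these matches, and each stretch reads 5′ to 3′ along its gene.
Hspa5 (ERSE; chr2:34771940-34772089, plus strand): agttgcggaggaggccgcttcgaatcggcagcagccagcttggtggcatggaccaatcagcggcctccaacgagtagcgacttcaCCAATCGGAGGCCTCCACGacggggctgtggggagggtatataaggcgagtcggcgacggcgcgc
Herpud1 (CARE on the opposite strand, then ERSE-II; chr8:94386279-94386428, plus strand): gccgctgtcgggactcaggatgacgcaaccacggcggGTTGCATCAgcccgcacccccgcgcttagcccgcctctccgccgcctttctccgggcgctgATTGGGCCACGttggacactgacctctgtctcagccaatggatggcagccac
Asns (CARE; chr6:7693210-7693329, minus strand): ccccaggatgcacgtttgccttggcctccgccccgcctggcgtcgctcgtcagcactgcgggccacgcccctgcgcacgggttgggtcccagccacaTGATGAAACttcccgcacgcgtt
Chac1 (CARE on the opposite strand; chr2:119351022-119351121, plus strand): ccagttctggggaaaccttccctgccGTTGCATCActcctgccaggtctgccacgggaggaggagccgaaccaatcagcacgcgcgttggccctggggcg

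The first 3 stretches end 1 base before the start. The ERSE of Hspa5 begins 65 bases before it, the ERSE-II of Herpud1 52 bases and its CARE 113 bases, and the CARE of Asns 23 bases. That of Chac1 begins 194 bases before the start, so it is lost when 150 bases are searched. TGACGTG (1.65% of promoters) matched in Hspa5 alone among the members, 157 bases before the start, and the cAMP element TGACGTCA (1.55%) in none. A match is a description of letters, not a measured site, and these 5 patterns were the only ones searched.

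Per kilobase of exon (lengths from GENCODE M21), the members spanned from Hspa5, the main ER chaperone BiP, at a mean of 262 CPM per kb to Chac1, an enzyme that degrades glutathione, at 0.484 CPM per kb. Xbp1 (76.3), Atf4 (61.1), Herpud1 (37.4), Psat1 (23.5) and Ddit3 (18.7 CPM per kb) lay between, followed by Asns (6.91), Sesn2 (4.08) and Trib3 (2.65 CPM per kb). Chac1 rested on 11 to 94 counts per library. Over the 12 libraries it also varied most, 7.24-fold from lowest to highest, whereas Herpud1 varied 1.4-fold and Atf4 1.5-fold. The SD of log2 CPM over the 12 libraries was 0.129 for Herpud1, 0.161 for Atf4 and 1.07 for Chac1, against a median of 0.368 over all genes tested.

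**Figure D1:**
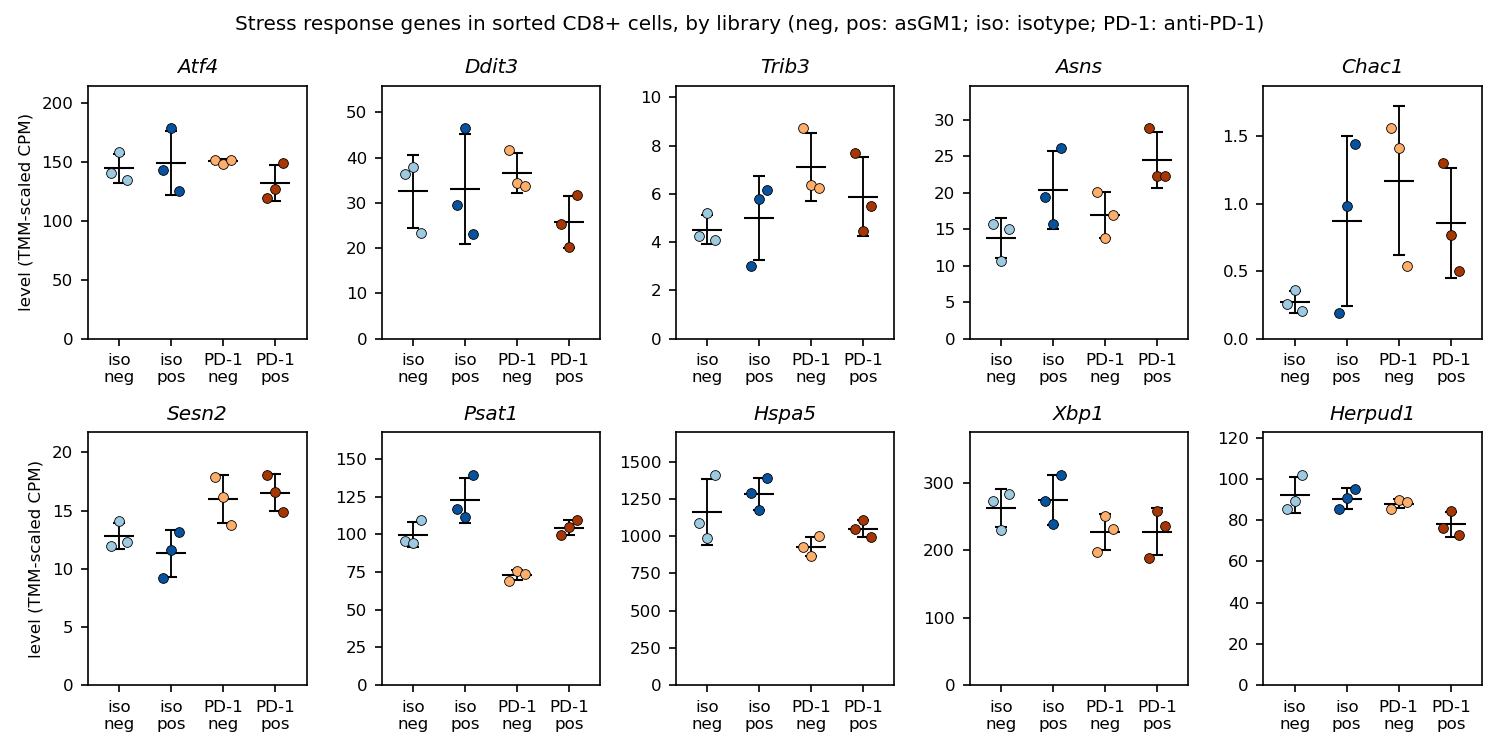
Level of each of the 10 genes in TMM-scaled CPM (vertical axis, linear, from 0) in every library, by group (horizontal axis; iso, isotype; PD-1, anti-PD-1; neg and pos, asGM1-negative and asGM1-positive); points are libraries, the long bar is the mean and the whiskers are 1 SD (n = 3). Psat1 separates all 3 anti-PD-1 asGM1-negative libraries (69.2 to 75.7 CPM) from every other library, while the 4 groups of Atf4 and Xbp1 overlap.

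Few of the 10 genes differed between groups. Between asGM1 populations Psat1, an enzyme of serine synthesis, was the only member called, higher in asGM1-positive cells under anti-PD-1. Between treatments, averaged over both populations, Psat1 and Hspa5 were lower and Sesn2 higher under anti-PD-1. This averaged comparison takes all libraries as independent. Its p-values may be too small if same-numbered libraries within a treatment are paired. The transcription factors Atf4, Ddit3 and Xbp1 were called in no comparison. Asns, which makes asparagine, was higher in every asGM1-positive library than in any asGM1-negative one of the same treatment. That difference was called once a pairing of libraries, inferred from these data, was modelled.

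In numbers, asGM1-positive against asGM1-negative cells gave 0 of 10 members under isotype by edgeR, where 1.31% of all genes tested were called, and 1 of 10 under anti-PD-1, where 1.58% were. Anti-PD-1 against isotype gave 1 of 10 in asGM1-negative cells (8.57% of all genes), 0 of 10 in asGM1-positive cells (6.73%), and 3 of 10 averaged over populations (18.1%). Where edgeR called 0 members, 3 had an unadjusted p under 0.05 under isotype (12.5% of all genes did) and 4 in asGM1-positive cells (21%); DESeq2 called 0 and 1 members there, and limma voom 0 and 0. Averaged over treatments, the population comparison gave 1 of 10 (3.59%). The 4 simple comparisons share libraries, each group entering 2 of them, so their values are set side by side here and no overlap between them is given. Groups did not overlap for 2, 4, 3 and 4 members in the 4 simple comparisons in that order, where 16.3%, 19.7%, 30.3% and 24.0% of all genes did not. The members' median log2 difference was 0.10, -0.09, 0.11 and -0.20 in turn, against medians between -0.01 and 0.00 over all genes. In bulk RNA, fewer cells of a type and less RNA per cell cannot be told apart.

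**Figure D2:**
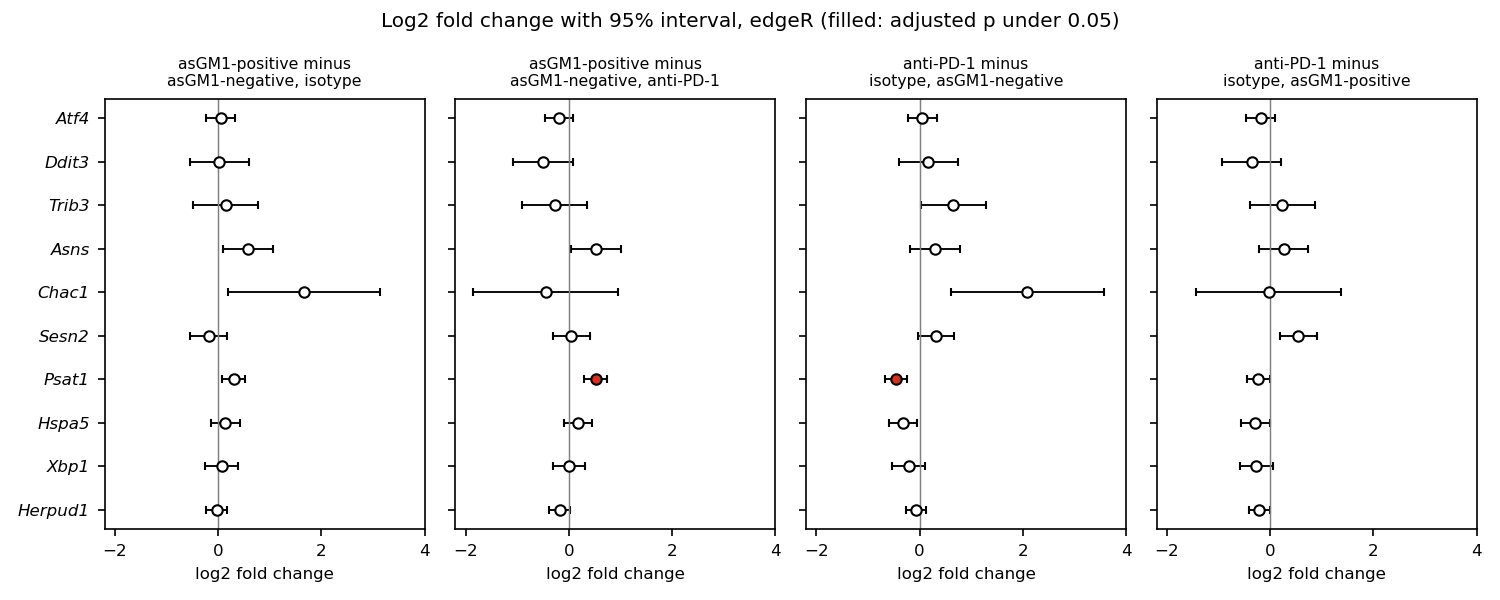
Log2 fold change of the 10 genes (horizontal axis) with its 95% interval in the 4 simple comparisons, from edgeR on all 12 libraries; filled points passed an adjusted p under 0.05. Psat1 is the only filled point, at 0.52 (asGM1-positive minus asGM1-negative, anti-PD-1) and -0.46 (anti-PD-1 minus isotype, asGM1-negative), and the Chac1 intervals are the widest.

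Psat1 (phosphoserine aminotransferase) carries out a middle step of serine synthesis and is a textbook ATF4 target. Under isotype it stood at 95.9, 94.5 and 109.3 CPM in the 3 asGM1-negative libraries and at 117.1, 111.6 and 139.8 CPM in the asGM1-positive ones. Under anti-PD-1 the asGM1-negative libraries held 69.2, 75.7 and 73.5 CPM and the asGM1-positive ones 99.4, 104.7 and 109.6 CPM. No 2 groups overlapped except isotype asGM1-negative and anti-PD-1 asGM1-positive. The order ran from isotype asGM1-positive (123 ± 14.9 CPM, SD, n = 3) through anti-PD-1 asGM1-positive (105 ± 5.11) and isotype asGM1-negative (99.9 ± 8.18) to anti-PD-1 asGM1-negative (72.8 ± 3.34). These middle 2 groups did not differ beyond their spread.

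Psat1 was higher in asGM1-positive cells under anti-PD-1 by 0.52 on the log2 scale (SE 0.10, edgeR adjusted p = 0.0285). Under isotype the log2 difference was 0.30 (SE 0.10, adjusted p = 0.228), and averaged over treatments Psat1 was higher by 0.41 (SE 0.07, adjusted p = 0.00835), which became 0.054 on dropping the anti-PD-1 replicate 2 pair. Same-numbered libraries of one treatment deviated together, so they were taken as pairs within treatment, which no label states. With that pairing as a replicate block the isotype difference passed as well, at 0.29 (adjusted p = 0.0444). All 6 pairs were higher in the asGM1-positive library, by 0.24 to 0.58 on the log2 scale. Any pairing within treatment would give that direction, because the populations did not overlap in either treatment. The size of the Psat1 difference did not differ detectably between treatments, with an interaction of 0.22 (SE 0.14, adjusted p = 0.834). Within anti-PD-1 the call did not survive dropping any of the asGM1-negative libraries (adjusted p = 0.108, 0.101 and 0.109 for replicates 1, 2 and 3) or dropping replicate 2 (0.0859) or 3 (0.115) of the asGM1-positive ones. Dropping the pair of libraries numbered 2 gave an adjusted p of 0.22 and a log2 value of 0.54.

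Between treatments, in asGM1-negative cells Psat1 fell by 0.46 on the log2 scale under anti-PD-1 (SE 0.10, adjusted p = 0.0171), and in asGM1-positive cells the log2 difference was -0.23 (SE 0.10, adjusted p = 0.21); the interaction above is the test of that contrast. Averaged over populations Psat1 fell by 0.34 (SE 0.07, adjusted p = 0.0062), a call kept in all 12 refits with 1 library left out and in the refit lacking the anti-PD-1 replicate 2 pair (0.028). The call in asGM1-negative cells was lost on dropping replicate 3 of isotype (0.0569), replicate 1 (0.0784) or replicate 3 (0.0605) of anti-PD-1, or the replicate 2 pair (0.0607).

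Genes whose levels ran most like Psat1 across the 12 libraries were Slc25a10, a mitochondrial dicarboxylate carrier (Pearson r = 0.984), and the mitotic genes Pkmyt1 (0.98) and Prc1 (0.978), among 8770 candidates; these points share libraries and groups and carry no test. The mitotic kinase gene Cdk1, chosen after its values were seen, averaged 116 ± 8.22 CPM (isotype asGM1-negative), 142 ± 10.2 (isotype asGM1-positive), 62.0 ± 3.27 (anti-PD-1 asGM1-negative) and 113 ± 15.6 CPM (anti-PD-1 asGM1-positive; SD, n = 3 each). Isotype asGM1-positive was highest and anti-PD-1 asGM1-negative lowest, as for Psat1. For Mki67, another gene of dividing cells and likewise chosen after its values were seen, isotype asGM1-negative was highest, the means being 251 ± 22, 241 ± 67.3, 147 ± 32.2 and 221 ± 63.6 CPM in that order of groups. The part of dividing cells, and of the macrophage and plasmacytoid dendritic cell RNA given above, in the Psat1 differences was not tested.

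Asns (asparagine synthetase), whose promoter carries the CARE shown above, held 15.7, 10.6 and 15 CPM in isotype asGM1-negative libraries and 19.4, 15.7 and 26.2 CPM in isotype asGM1-positive ones. Under anti-PD-1 these were 20.1, 13.8 and 16.9 CPM against 28.9, 22.3 and 22.3 CPM. The asGM1-positive libraries lay wholly above the asGM1-negative ones in each treatment, though under isotype the 2 nearest libraries were equal to the decimal shown. The log2 difference was 0.57 (SE 0.22, adjusted p = 0.299) under isotype, 0.53 (SE 0.22, adjusted p = 0.376) under anti-PD-1, and 0.55 (SE 0.16, adjusted p = 0.0832) averaged over treatments. With the replicate block the 3 values were 0.56, 0.54 and 0.55 and all were called (adjusted p = 0.0477, 0.0487 and 0.0077), where 3.94%, 4.78% and 8.6% of all genes were called. The pairs differed by 0.31, 0.57 and 0.80 under isotype and by 0.52, 0.69 and 0.40 under anti-PD-1, all in 1 direction. Any pairing within treatment would give that direction, because the populations did not overlap. Treatment gave a log2 difference of 0.28 (SE 0.16, adjusted p = 0.251) averaged over populations.

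**Figure D3:**
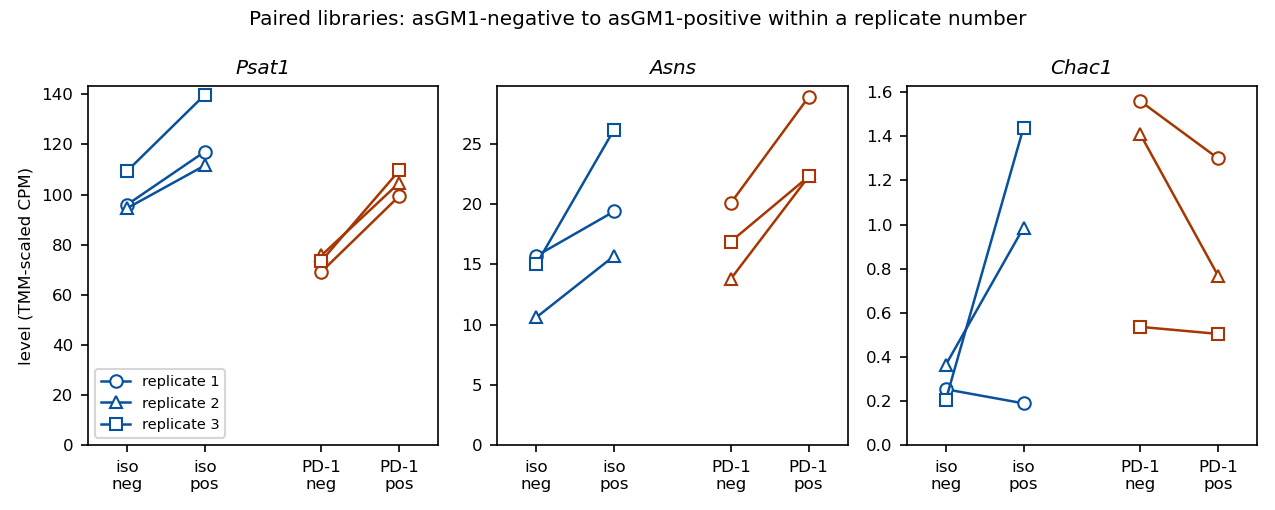
Levels of Psat1, Asns and Chac1 in TMM-scaled CPM (vertical axes from 0), with lines joining the asGM1-negative and asGM1-positive library of 1 replicate number within a treatment (blue, isotype; brown, anti-PD-1; circle, triangle and square, replicates 1 to 3). All 6 lines rise for Psat1 and for Asns, as under any pairing, because their populations do not overlap within a treatment. For Chac1 2 of 3 isotype lines rise and 0 of 3 anti-PD-1 lines do.

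Of the members, the transcription factors Atf4, Ddit3 and Xbp1 were not called in any comparison. The sensors of the unfolded protein response, of which some were called between treatments, are given further below. Atf4 averaged 145 ± 12.4 CPM (isotype asGM1-negative), 149 ± 27.0 (isotype asGM1-positive), 151 ± 1.71 (anti-PD-1 asGM1-negative) and 132 ± 15.3 CPM (anti-PD-1 asGM1-positive; SD, n = 3 each), with all neighbouring groups overlapping. Its log2 differences in the 4 simple comparisons ran from -0.19 to 0.06, with standard errors of 0.13, and the 95% interval lying farthest from 0 reached from -0.47 to 0.09. ATF4 is governed chiefly by translation, which RNA counts do not measure.

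Ddit3 averaged 32.5 ± 8.01, 33.0 ± 12.1, 36.6 ± 4.49 and 25.8 ± 5.75 CPM in the same order of groups. Under anti-PD-1 its asGM1-positive libraries (20.3 to 31.8 CPM) lay wholly below the asGM1-negative ones (33.6 to 41.7 CPM), a log2 difference of -0.50 (SE 0.26, adjusted p = 0.535). Under isotype the groups overlapped, at 0.02 (SE 0.26, adjusted p = 0.988). Across libraries Ddit3 ran with Atf4 (Pearson r = 0.876, n = 12 libraries that share groups and scaling, given as a description), and the highest library of both was isotype asGM1-positive replicate 2, at 46.5 and 178.9 CPM. The exons of Ddit3 overlap those of Mars1 on the opposite strand, a tRNA synthetase gene with 98391 counts in the 12 libraries. Use of strand in counting was not stated, so the Ddit3 level is uncertain.

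Trib3, a pseudokinase induced by ATF4 and CHOP that damps their action, averaged 4.52 ± 0.596 CPM (isotype asGM1-negative), 4.99 ± 1.74 (isotype asGM1-positive), 7.11 ± 1.40 (anti-PD-1 asGM1-negative) and 5.88 ± 1.64 CPM (anti-PD-1 asGM1-positive; SD, n = 3 each). In asGM1-negative cells the anti-PD-1 libraries (6.26 to 8.73 CPM) lay wholly above the isotype ones (4.10 to 5.20 CPM), by 0.66 on the log2 scale (SE 0.29, adjusted p = 0.202). Averaged over populations the log2 difference was 0.45 (SE 0.20, adjusted p = 0.16). Neither passed, and the intervals reached 1.29 and 0.89 at their upper ends. Trib3 ran with Chac1 (r = 0.847) and with Sesn2 (r = 0.776) over the 12 libraries, more closely than with Atf4 (r = 0.04); these values are descriptions.

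Chac1 cleaves glutathione and is induced by ATF4 under stress. Isotype asGM1-negative libraries held 0.253, 0.363 and 0.203 CPM (16, 22 and 15 counts), and anti-PD-1 asGM1-negative ones 1.56, 1.41 and 0.536 CPM (93, 83 and 35 counts). The asGM1-positive libraries held 0.189, 0.986 and 1.44 CPM under isotype and 1.30, 0.768 and 0.504 CPM under anti-PD-1. Isotype asGM1-negative was thus uniformly low, below every other library but isotype asGM1-positive replicate 1. The log2 difference of anti-PD-1 from isotype in asGM1-negative cells was estimated at 2.09 (SE 0.68, adjusted p = 0.0818), which did not pass. It passed with DESeq2 (adjusted p = 0.0238, 14.8% of all genes called), in a fit of the 6 libraries compared (0.0414), and on dropping replicate 1 of isotype asGM1-positive (0.0314), and over all its alternatives the adjusted p ran from 0.0238 to 0.228.

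In asGM1-positive cells Chac1 differed by -0.03 between treatments (SE 0.64, adjusted p = 0.994), and between populations by 1.67 under isotype (SE 0.67, adjusted p = 0.322) and -0.45 under anti-PD-1 (SE 0.64, adjusted p = 0.918). The difference between these 2 population effects was -2.12 (SE 0.93, unadjusted p = 0.0419, adjusted p = 0.688). Chac1 was the only member with an unadjusted interaction p under 0.05, where 7.12% of all genes had one. By edgeR no gene of the 18657 passed the interaction at an adjusted p under 0.05 (0.0%), against 1329 at an unadjusted p under 0.05. DESeq2 called 136 genes, limma voom 0 and the fit with the replicate block 5 (0.0268%), with 0 members among them in each.

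Sesn2 (sestrin 2) is induced by ATF4 and by p53 and restrains mTORC1 when leucine is short. Isotype libraries held 12, 14.1 and 12.3 CPM (asGM1-negative) and 9.17, 11.6 and 13.2 CPM (asGM1-positive), and anti-PD-1 libraries 17.9, 16.2 and 13.8 CPM (asGM1-negative) and 18.1, 16.6 and 14.9 CPM (asGM1-positive). Of the 6 anti-PD-1 libraries, 5 lay above all 6 isotype libraries, the exception being asGM1-negative replicate 3. Sesn2 rose under anti-PD-1 by 0.43 on the log2 scale averaged over populations (SE 0.12, adjusted p = 0.0229). The difference was 0.55 (SE 0.16, adjusted p = 0.0705) in asGM1-positive and 0.32 (SE 0.16, adjusted p = 0.273) in asGM1-negative cells, and between populations it was -0.18 and 0.05 (adjusted p = 0.734 and 0.971).

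Dropping replicate 1 of any 1 of the 4 groups ended the averaged Sesn2 call, with adjusted p = 0.0585 (isotype asGM1-negative), 0.0502 (isotype asGM1-positive), 0.0631 (anti-PD-1 asGM1-negative) and 0.0606 (anti-PD-1 asGM1-positive). Dropping anti-PD-1 asGM1-positive replicate 2 (0.0506) or the anti-PD-1 replicate 2 pair (0.0866) ended it as well. The log2 value in those refits ran from 0.37 to 0.43. In asGM1-positive cells the difference passed with DESeq2 (0.014, 12.1% of all genes called) and on dropping replicate 3 of isotype asGM1-positive (0.0484).

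Hspa5, which encodes the ER chaperone BiP and has the ERSE shown above, is the standard readout of the ATF6 and XBP1 arms. It stood at 1091, 985.7 and 1413 CPM in isotype asGM1-negative libraries, 1289, 1172 and 1390 CPM in isotype asGM1-positive, 924.7, 867.6 and 997.7 CPM in anti-PD-1 asGM1-negative and 1050, 1107 and 992.4 CPM in anti-PD-1 asGM1-positive libraries. Averaged over populations Hspa5 fell by 0.31 on the log2 scale under anti-PD-1 (SE 0.09, adjusted p = 0.0346), while some libraries of the 2 treatments overlapped. Within a population the log2 differences were -0.32 (asGM1-negative, SE 0.13, adjusted p = 0.15) and -0.29 (asGM1-positive, SE 0.13, adjusted p = 0.213). Between populations they were 0.14 under isotype and 0.18 under anti-PD-1 (adjusted p = 0.727 and 0.729).

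The averaged Hspa5 call rested on most libraries. Dropping any 1 of the 6 anti-PD-1 libraries ended it, with adjusted p = 0.0742, 0.0804 and 0.0509 for asGM1-negative replicates 1 to 3 and 0.0593, 0.0546 and 0.0683 for asGM1-positive replicates 1 to 3. So did dropping replicate 1 (0.0674) or replicate 3 (0.0677) of isotype asGM1-positive, or the anti-PD-1 replicate 2 pair (0.102). The log2 value in those 9 refits ran from -0.33 to -0.28. On a list of 10 heat shock genes outside the ER, 7 were called lower under anti-PD-1 and 0 higher. These counts are averaged over populations, where 18.1% of all genes were called. Of the 7, 6 were among the 8 genes of the list other than the mitochondrial Hspd1 and Hspe1, and Hspe1 was the remaining one. Their summed level was 3230 to 3930 and 3770 to 4160 CPM in the isotype groups against 2260 to 2830 and 2390 to 2860 CPM in the anti-PD-1 groups (asGM1-negative first). Whether these differences have a part in the Hspa5 value was not tested.

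Xbp1, whose message IRE1 splices to make the active factor, averaged 262 ± 28.4 CPM (isotype asGM1-negative), 274 ± 37.0 (isotype asGM1-positive), 227 ± 27.4 (anti-PD-1 asGM1-negative) and 228 ± 35.4 CPM (anti-PD-1 asGM1-positive; SD, n = 3 each). All neighbouring groups overlapped, and the averaged treatment difference was -0.24 (SE 0.10, adjusted p = 0.131). Gene-level counts do not separate spliced from unspliced Xbp1. Herpud1, an ER membrane protein that helps degrade misfolded proteins, averaged 92.3 ± 8.72, 90.4 ± 4.96, 88.0 ± 2.39 and 77.9 ± 6.03 CPM in the same order. Its anti-PD-1 asGM1-positive libraries (72.9 to 84.6 CPM) lay wholly below the other 9, with a log2 difference from isotype of -0.21 (SE 0.09, adjusted p = 0.208) and from anti-PD-1 asGM1-negative cells of -0.18 (SE 0.09, adjusted p = 0.535). Hspa5 and Herpud1 both have an ER stress element in the promoter, and as a description over the 12 libraries Hspa5 ran more closely with Psat1 (r = 0.811) and Xbp1 (r = 0.676) than with Herpud1 (r = 0.493).

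Besides the members, 9 lists holding 131 genes were read, of which 129 were tested. The p53 targets, 1 of these lists with 9 genes, belong to neither pathway, and the other lists hold further genes of both. Between populations almost none of the 129 genes was called. Under isotype 1 rose and 1 fell (1.55% of those tested), Nupr1 and Trp53inp1, and under anti-PD-1 0 rose and 1 fell (0.775%), again Trp53inp1. Over all genes tested the shares were 1.31% and 1.58%. Nupr1, a small stress-induced chromatin protein, was at 4.26 ± 1.77 CPM in isotype asGM1-positive against 0.950 ± 0.412 CPM in isotype asGM1-negative cells (log2 2.16, SE 0.42, adjusted p = 0.0332), a call lost without any 1 of 5 libraries, with adjusted p up to 0.118, and without the anti-PD-1 replicate 2 pair (0.0658). Trp53inp1, a p53 target that promotes autophagy and cell death, was lower in asGM1-positive cells by 0.64 on the log2 scale under isotype (log2 -0.64, SE 0.09, adjusted p = 0.0051) and by 0.62 under anti-PD-1 (log2 -0.62, SE 0.09, adjusted p = 0.00749). The isotype call of Trp53inp1 was lost in a fit of the compared libraries alone (adjusted p = 0.0804), and the anti-PD-1 call without the replicate 2 pair (0.104).

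With the replicate block more list genes were called between populations, 5 higher and 2 lower under isotype, 11 and 2 under anti-PD-1, and 15 and 2 averaged over treatments. The block also called 3.94%, 4.78% and 8.6% of all genes in these comparisons, against 1.31%, 1.58% and 3.59% without it. The list genes called with the block include some serine pathway neighbours of Psat1. Others of that list's 11 tested genes, among them Psph and Mthfd2, were called in none of these comparisons. Phgdh, the first enzyme of serine synthesis, was higher in asGM1-positive cells by 0.29 on the log2 scale under isotype (adjusted p = 0.0365) and by 0.45 under anti-PD-1 (0.00529), and its mean was 279 ± 49.7 against 227 ± 28.3 CPM and 251 ± 22.1 against 184 ± 13.3 CPM (SD, n = 3). Shmt1 and Shmt2, which pass serine carbon to folate, were higher under anti-PD-1 by 1.02 (0.0118) and 0.39 (0.0492). The leucine transporter gene Slc7a5 was higher by 0.51 (0.014), while its partner Slc3a2 was lower by 0.28 (log2 -0.28, adjusted p = 0.0244). By edgeR without the block none of Phgdh, Shmt1, Shmt2, Slc7a5 and Slc3a2 was called between populations. For Phgdh averaged over treatments the unblocked log2 value was 0.37 (SE 0.09, adjusted p = 0.0529).

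ER chaperones were represented as well. With the block, Sdf2l1, Pdia6, Hsp90b1 and Calr were higher in asGM1-positive cells under anti-PD-1, by 0.48, 0.38, 0.37 and 0.30 on the log2 scale (adjusted p = 0.00859, 0.0379, 0.0159 and 0.0194). Without the block the averaged comparison called 1 list gene higher, Sdf2l1 (log2 0.38, SE 0.08, adjusted p = 0.0182), a stress-induced partner of BiP; the call ended on dropping replicate 2 of isotype asGM1-negative (0.0548) or the anti-PD-1 replicate 2 pair (0.0949).

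Between treatments the lists moved more. Averaged over populations 21 list genes rose and 12 fell under anti-PD-1, 25.6% of the 129 where 18.1% of all genes were called. Of the 21 that rose 6 were p53 targets, and of the 12 that fell 0 were. Without both anti-PD-1 replicate 2 libraries 13 list genes rose and 7 fell, where 10.8% of all genes were called. In asGM1-negative cells 11 list genes rose and 7 fell (14%, against 8.57% of all genes). In asGM1-positive cells 7 rose and 5 fell (9.3%, against 6.73% of all genes). The p53 targets made up 3 of the 11 and 2 of the 7 that rose. Without the pair the counts were 5 and 4, and 5 and 3, where 791 and 604 of the 19528 genes tested in that refit were called. Counts of genes called in the lists below are averaged over populations, to be read against the 18.1%. Their p-values, too, take all libraries as independent.

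Several sensors rose. Of 8 UPR sensors and processing proteases 4 rose, 0 fell and 4 did not pass, with a list median of 0.37 on the log2 scale against -0.02 over all genes. Eif2ak3, which encodes the kinase PERK, went from 36.0 ± 5.72 to 67.9 ± 11.4 CPM (SD over 6 libraries of both populations; log2 0.92, SE 0.14, adjusted p = 0.00092). Atf6 rose from 36.9 ± 4.24 to 53.7 ± 6.74 CPM (log2 0.54, SE 0.11, adjusted p = 0.00454) and Ern1, which encodes IRE1α, from 7.20 ± 2.0 to 12.9 ± 2.28 CPM (log2 0.84, SE 0.19, adjusted p = 0.0103). Creb3l2, a membrane-bound relative of ATF6, rose most, from 8.68 ± 2.82 to 33.9 ± 18.4 CPM (log2 2.01, SE 0.32, adjusted p = 0.00133), with replicate 1 of each anti-PD-1 population well above the rest at 50.4 and 63.2 CPM against 19.3 to 28.0 CPM.

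Some chaperones fell. Of 19 ER chaperones and folding enzymes 0 rose, 7 fell and 12 did not pass, with a list median of -0.15. Calr (calreticulin) went from 839 ± 52.8 to 612 ± 81.6 CPM (log2 -0.46, SE 0.07, adjusted p = 0.000686), Sil1, the exchange factor of BiP, from 54.3 ± 5.93 to 39.6 ± 1.96 CPM (log2 -0.45, SE 0.06, adjusted p = 0.00054), and Sdf2l1 from 169 ± 19.5 to 120 ± 25.8 CPM (log2 -0.51, SE 0.08, adjusted p = 0.00105). Manf, a secreted ER stress protein, fell by 0.41 (log2 -0.41, SE 0.07, adjusted p = 0.00223). Each of these 4 was called in all 12 refits without 1 library and without both anti-PD-1 replicate 2 libraries. Among those that did not pass, and chosen after their values were seen, Hyou1 stood at 0.01 and Dnajb9 at 0.19 on the log2 scale.

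Of 16 genes of ER-associated degradation 5 rose, 0 fell and 11 did not pass, with a list median of 0.23. Edem1, which marks misfolded glycoproteins for disposal, rose from 254 ± 24.2 to 342 ± 36.7 CPM (log2 0.43, SE 0.08, adjusted p = 0.00475) and Selenos by 0.26 (SE 0.05, adjusted p = 0.00479). Os9, an ER lectin of this route, rose by 0.26 (adjusted p = 0.0204), a call that was lost in 4 of the 12 refits without 1 library, with adjusted p up to 0.0556, and without the anti-PD-1 replicate 2 pair (0.113). Of 18 translocation and secretion genes of the XBP1 program, Tram1 rose (0.44, adjusted p = 0.0483) and Spcs2 fell (log2 -0.18, adjusted p = 0.0451), calls lost in 9 and 12 of those refits and without the pair (0.111 and 0.0715).

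**Figure D4:**
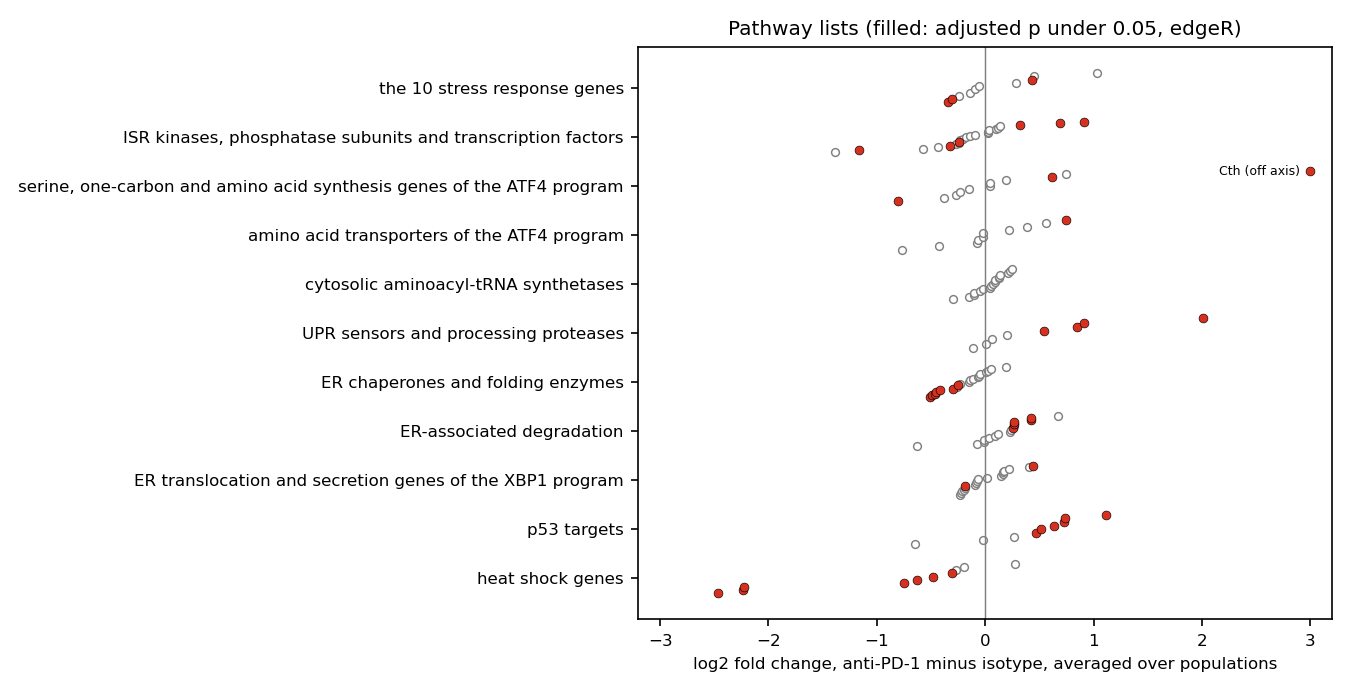
Log2 fold change, anti-PD-1 minus isotype averaged over populations (horizontal axis), of each tested gene of the 10 members, the 9 pathway lists and the heat shock list (rows); filled points passed an adjusted p under 0.05 by edgeR, points within a row are spread vertically by rank, and Cth is drawn at the edge of the axis because its fitted value rests on libraries near 0 counts. All filled points lie to the right in the sensor, degradation and p53 rows and to the left in the chaperone and heat shock rows.

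Among 22 kinases, phosphatase subunits and transcription factors of the integrated stress response, 3 rose and 3 fell under anti-PD-1. Besides Eif2ak3, Ppp1r15a (GADD34), which guides the phosphatase that ends the response, rose from 125 ± 28.4 to 203 ± 41.4 CPM (log2 0.69, SE 0.17, adjusted p = 0.0136), and Eif2ak1, the haem-sensing kinase, rose by 0.32 (SE 0.07, adjusted p = 0.00746). Cebpg, a partner of ATF4, fell from 42.4 ± 3.45 to 33.9 ± 2.15 CPM (log2 -0.32, SE 0.07, adjusted p = 0.0113). Nupr1 fell in asGM1-positive cells, from 4.26 ± 1.77 to 0.747 ± 0.175 CPM (log2 -2.51, SE 0.43, adjusted p = 0.00524). Without both anti-PD-1 replicate 2 libraries 1 of the list rose and 1 fell, as Ppp1r15a, Eif2ak1, Eif2s1 and Nupr1 did not pass in the averaged comparison (adjusted p = 0.066, 0.0517, 0.0884 and 0.0861).

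Amino acid genes of the ATF4 program did not move as 1 group. Of 10 transporters, Slc3a2, the heavy chain shared by several of them, was the only one called in this comparison. It stood at 289, 330 and 291 CPM and 321, 368 and 332 CPM under isotype and at 606, 562 and 613 CPM and 494, 480 and 491 CPM under anti-PD-1 (asGM1-negative first), so that all 6 anti-PD-1 libraries lay above all 6 isotype ones. The averaged rise was 0.74 on the log2 scale (SE 0.06, adjusted p = 1.5e-05), the values being 0.97 in asGM1-negative and 0.52 in asGM1-positive cells (adjusted p = 0.000181 and 0.0038). Of 11 tested synthesis genes 2 rose and 1 fell. Got1, which makes aspartate, rose from 58 ± 5.66 to 89.2 ± 14.7 CPM (log2 0.61, SE 0.09, adjusted p = 0.000634), and Shmt1 fell from 46.2 ± 13.1 to 28.1 ± 10.7 CPM (log2 -0.80, SE 0.18, adjusted p = 0.00893). Cth, the other gene called, was at 0 to 0.274 CPM in every library and did not pass without the anti-PD-1 replicate 2 pair (adjusted p = 0.0682). Of 17 cytosolic aminoacyl-tRNA synthetases, common targets of ATF4, none passed in any comparison of groups by edgeR without a block, with a median treatment difference of 0.08. With the replicate block Aars was called higher in asGM1-positive cells under anti-PD-1 (log2 0.29, adjusted p = 0.035), where 4.78% of all genes were called. Averaged over treatments the block called Aars (0.17, adjusted p = 0.049) and Iars (0.25, adjusted p = 0.0364) higher, where 8.6% of all genes were called.

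Of 9 p53 targets, listed because Sesn2 and Trib3 have inputs outside ATF4, 6 rose under anti-PD-1 and 0 fell, with a list median of 0.51. Averaged over populations, as here, 18.1% of all genes were called. Phlda3, a p53-induced inhibitor of AKT, rose from 8.05 ± 2.10 to 17.1 ± 3.15 CPM (log2 1.11, SE 0.13, adjusted p = 0.000171). Trp53inp1 rose from 27.6 ± 6.70 to 45.6 ± 10.7 CPM (log2 0.73, SE 0.06, adjusted p = 1.84e-05), Ccng1 by 0.73 (SE 0.15, adjusted p = 0.00615) and Mdm2 by 0.47 (SE 0.10, adjusted p = 0.00774). Sesn2, also a p53 target, thus rose beside them, and whether either pathway has a part in its value was not tested.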

How the data were processed

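Per the labels' protocols, RNA was extracted with TRIzol, and library preparation names both a TruSeq mRNA kit and a SMARTer ultra-low-input kit. Per the submitters' processing notes, the tools were HISAT2 and StringTie and the build mm39; their versions, settings and use of strand are not given in the sources used here. Whole-number counts were deposited by the authors per gene for each of 12 libraries, and 0 value columns were left unmapped. How these counts were derived from StringTie's output was not stated.

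Counts were tested with edgeR 4.0.16 (limma 3.58.1, R 4.3.3): default expression filter by group, TMM scaling, 1 quasi-likelihood model with 4 group means over the 12 libraries, 8 residual degrees of freedom, Benjamini-Hochberg adjustment over 18657 genes. The procedure was tested on simulated data. Alternatives were DESeq2 1.42.0, limma voom, RLE scaling, no filter, the compared libraries alone, each library left out, and replicate blocks. Same-numbered libraries of 1 treatment deviated together (correlation of deviations 0.121 to 0.298 in 6 of 6 pairs, against -0.192 to 0.026 for other numbers and -0.118 to 0.0497 across treatments). From this, numbers were taken to pair libraries within a treatment, which no label states. That block cannot be fitted to treatment comparisons. Those averaged over populations take same-numbered libraries as independent although they deviated together, so their p-values may be too small. The refit without both anti-PD-1 replicate 2 libraries was chosen after seeing the data. At this depth 3 counts, the limit that a count of 0 allows at 95% confidence, equal 0.0406 to 0.0524 CPM, for counting error only.

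The members and lists were chosen with earlier results of these data known. Text names the 10 members, up to 4 called genes per list and comparison with the smallest p (or, where none was called, the 1 gene with the smallest p), and the 3 genes most correlated with a member; genes called with the block, single marker genes, Cdk1, Mki67, Hyou1 and Dnajb9 are outside this rule. 1 gene that this rule names is not reported here.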

Additional observations from a re-analysis of the deposited data

How the results depend on the processing

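Of 1000 refitted log2 values for the members' differences printed above, 935 kept their direction and their side of the threshold, 26 no longer passed, 11 newly passed and 28 changed sign.

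Counts of genes called moved as follows. DESeq2 called 798 (isotype) and 853 (anti-PD-1) genes between populations, 1419 averaged, 2756 and 2264 between treatments (asGM1-negative, asGM1-positive), 136 for the interaction, and 2, 1 and 2 members for the asGM1-negative, asGM1-positive and averaged population comparisons. Fits of the compared libraries alone called 93 genes between populations under isotype, 677 between treatments in asGM1-positive cells, and 2 members between treatments in asGM1-negative cells. The replicate block within treatment called 736 and 891 genes, 1604 averaged, 5 for the interaction, and 2 members in each of the 3 population comparisons. A block shared by all groups, which no label backs, called 2 members in the averaged one. Without both anti-PD-1 replicate 2 libraries 16 genes were called between populations under anti-PD-1, 280 averaged, 791, 604 and 2108 between treatments, and 0, 0, 0 and 1 members (populations under anti-PD-1, populations averaged, treatments in asGM1-negative cells, treatments averaged).

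Leaving out 1 library gave 75 to 230 and 49 to 354 genes between populations (isotype, anti-PD-1), 407 to 781 averaged, and 730 to 1737 and 674 to 1252 between treatments (asGM1-negative, asGM1-positive; 2428 to 3451 averaged); members called ran 0 to 1 (populations, anti-PD-1), 0 to 2 and 0 to 1 (treatments, in the same order) and 1 to 3 (treatments averaged). Signs changed only for values that were never called. The replicate block gave Ddit3 -0.006 under isotype, and Xbp1 between populations under anti-PD-1 became -0.003 with limma voom, -0.001 with the block and -0.03 without both replicate 2 libraries. Chac1 between treatments in asGM1-positive cells became 0.21 with limma voom and 0.05 without both. The other changes of sign came from leaving out 1 library, with ranges of -0.12 to 0.16 (Atf4), -0.32 to 0.22 (Ddit3), -0.036 to 0.407 (Trib3), -0.037 to 0.142 (Xbp1) and -0.083 to 0.049 (Herpud1) under isotype, -0.055 to 0.138 (Sesn2) and -0.10 to 0.14 (Xbp1) under anti-PD-1, -0.021 to 0.293 (Ddit3) and -0.120 to 0.012 (Herpud1) between treatments in asGM1-negative cells, and -0.024 to 0.418 (Trib3) and -0.50 to 0.53 (Chac1) in asGM1-positive cells. Of the averaged and interaction values not printed above, 7 also crossed 0 over their alternatives, among them Atf4 (-0.115 to 0.0181) and Ddit3 (-0.192 to 0.0763) between treatments. The cause was not tested.

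Low counts limit Chac1 most. With 150 bases searched, 2 members kept a CARE and 0 a TGACGTG.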
